A study of Homo sapiens with 10 samples.

Results

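RWPE-1 cells labelled as overexpressing ERG were compared with RWPE-1 cells carrying the biotin ligase BirA alone, on 3 arrays each. The comparison covers 6663 of the 19775 genes that at least 1 single-gene probe set names. A gene was included if 2 or more of its probe sets lay above the array's median on at least 3 of the 10 arrays of the series, and it was read with all of those probe sets, 18516 in total. A further 7453 genes had 1 such probe set and were left out, and of the 10523 genes with at least 2 probe sets on the array, 3860 had fewer than 2 that passed. Values are deposited intensities after quantile normalization, and fold changes are differences of log2(intensity + 16), ERG-labelled minus control.

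RWPE-1 is an immortalised, non-tumorigenic epithelial line from human prostate. The cells were transduced with MSCV retroviruses, selected as stable clones and kept in normal growth conditions. Controls expressed BirA (3 arrays, A to C), the ERG-labelled cells expressed BirA with ERG (3 arrays, A to C), and a further group expressed BirA with ETV1 (4 arrays, A to D). Total RNA was labelled as biotinylated cRNA for HG-U133 Plus 2.0 arrays, on which most genes are read by several probe sets. Every group had thus been through viral transduction and selection, and the labels do not say whether replicates came from separate clones. The p-values below therefore measure the spread between these arrays, which may be technical.

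ERG is an ETS transcription factor, a family whose DNA-binding domain recognises a GGAA core. It is normally expressed in endothelium and blood cell lineages. In prostate cancer it is placed under androgen control by fusion to the promoter region of TMPRSS2, which raises it in luminal epithelial cells. The series was set up around overexpression of ERG and ETV1 in non-tumorigenic prostate epithelium, and the comparison here is between arrays labelled ERG and arrays labelled as control.

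ERG itself did not settle the label. Its probe set 222079_at, the only one of the 4 that passed the filter, read 176, 171 and 192 on control arrays A to C and 9.64, 6.82 and 10.8 on ERG-labelled arrays A to C (log2 fold change -2.96, limma adjusted p = 1.7e-08). Its probe set 211626_x_at went the other way, from 11.8, 10.6 and 5.13 to 30.7, 44.2 and 63.3 (log2 fold change 1.28, limma adjusted p = 4.3e-04). For 213541_s_at the difference was 0.56 (limma adjusted p = 0.079), and for 241926_s_at it was 0.52 (limma adjusted p = 0.025). With 1 probe set past the filter, ERG was not among the 6663 genes, and every direction below is that of arrays labelled ERG.

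The 2 groups of arrays also differed outside the genes compared. The deposited median intensity was 48.4 to 52.5 on the ERG-labelled arrays and 71.3 to 73.4 on the control arrays, and the 3 prime to 5 prime ratio of the ACTB controls was 2.75 to 3.07 against 1.35 to 1.40. The 5 prime probe set of 18S ribosomal RNA read 834 to 1103 against 79.4 to 159. Each of these measures separated all ERG-labelled from all control arrays. Array handling and cell group cannot be told apart, and the part of these differences in the results was not tested. In RNA from whole cultures, a lower level per cell and fewer cells of a kind cannot be told apart either.

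Probe sets of the same gene often disagreed. Among the 6663 genes, the tested probe sets all had 1 sign in 2960 genes (44.4%) in ERG-labelled against control arrays. In ETV1 against control arrays, which share the same 3 controls, this was so in 3909 genes (58.7%). The gap between a gene's highest and lowest log2 fold change had a median of 1.26 (interquartile range 0.60 to 2.04) in the ERG-labelled comparison and 0.33 (0.16 to 0.58) in the ETV1 comparison. In 3628 genes with exactly 2 tested probe sets, the correlation of their fold changes across genes was 0.19 (Pearson) and 0.21 (Spearman) for the ERG-labelled arrays, and 0.62 and 0.55 for the ETV1 arrays. These are descriptions, since genes are not independent replicates and the probe sets of a gene were read on the same arrays.

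**Figure D1:**
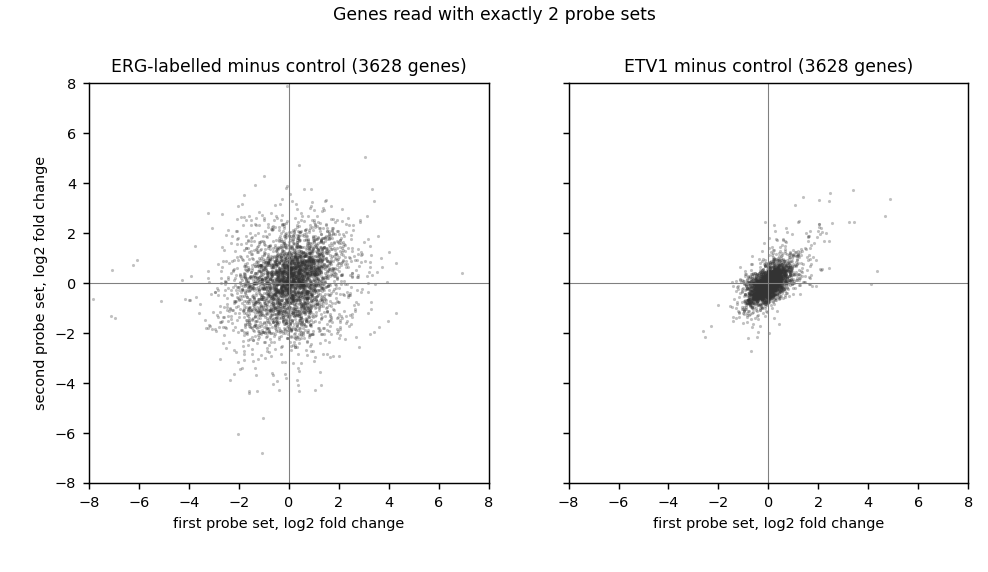
Log2 fold change of one probe set (horizontal) against the other (vertical) for the 3628 genes read with exactly 2 probe sets; each point is a gene, with ERG-labelled minus control on the left and ETV1 minus control on the right. The left cloud is round (Pearson 0.19), and the right one lies along the diagonal (Pearson 0.62).

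A gene was therefore called higher or lower only where every tested probe set passed in the same direction (limma, Benjamini-Hochberg adjusted p under 0.05). By this rule 1008 genes (15.1%) rose and 750 (11.3%) fell. In 2286 genes (34.3%), here called opposed, probe sets passed in both directions, and 2619 (39.3%) met none of these criteria. Read instead by the mean of its tested probe sets, 73.5% of the genes passed, 38.3% higher and 35.2% lower, since a mean can pass where probe sets disagree. In ETV1 against control arrays the same rule gave 423 genes higher (6.35%), 390 lower (5.85%) and 108 opposed (1.62%). Of the genes called in the ERG-labelled comparison, 57.3% were higher. When each array was centred on its median in place of quantile normalization, the median gene moved from 0.03 to 0.49 on the log2 scale and 82.9% of the called genes were higher, so directions are relative to the quantile scale. The share called higher was 47.9% to 48.9% when any ERG-labelled array was left out, a setting in which fewer genes passed the filter. List counts given below for other settings are to be read against all genes in the same setting. With values as deposited 1150 genes were called higher and 655 lower, and under median centring 1907 and 393. At 2-fold these were 255 and 212. Under a filter at the 75th percentile they were 566 and 496 of 3458 genes, and without a filter 1040 and 699 of 10523.

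Part of the called genes passed the filter through 1 group. Of the 1008 genes that rose, 409 had a probe set above the median on no control array, and of the 750 that fell, 357 had a probe set above the median on no ERG-labelled array. Among the 3067 genes whose tested probe sets were above the median on all 6 arrays, 481 rose (15.7%), 324 fell (10.6%) and 767 were opposed (25%). Of the genes that rose and are given below, those with a probe set above the median on no control array are B2M, CEP192P1, CXCL11, CXCL8, DHRS2, DUSP7, EPSTI1, ERF, FST, FZD2, HOXB7, ICAM1, IGF2BP1, KIF23, MED18, MRC2, MRNIP-DT, NDUFA7, NDUFB7, NDUFC1, PHLDA1, PLCL2, POLA2, S100A8, SERPINB3, STXBP6, TNC and TRMT44. Of those that fell, the ones with a probe set above it on no ERG-labelled array are CDH1, CLDN1, DUSP1, ETV1, FAM30A, FLT1, GINS4, GPR137, KLK4, LINC01210, LTBP1, PHACTR1, PIK3R5, PLXNB1, PXN, SERPINE2, SNRNP70, SPARC, TGFBR3, THY1, TRPM8, WNT7B and ZFP82. Such a probe set had to be brighter in 1 group to be tested, so its values are a description.

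Opposed probe sets were frequent at every signal level. With the genes ordered by mean log2 value and cut into 5 equal groups, 36.8% of the dimmest group were opposed, 41.8%, 39.5% and 32.0% of the next, and 21.5% of the brightest. The share that rose changed less, from 16.5% in the dimmest to 13.5% in the brightest group. A gene with more probe sets had more chances to be opposed: 21.7% of the genes with 2 tested probe sets were, 41.5% of those with 3 and 73.0% of those with 6 or more.

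**Figure D2:**
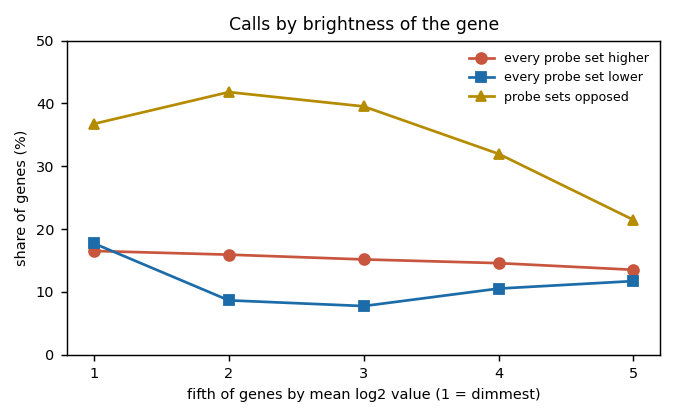
Share of genes (vertical, %) with every probe set higher, every probe set lower, or probe sets passing in opposite directions, for 5 equal groups of genes by mean log2 value (horizontal, 1 is the dimmest). The opposed share is largest in group 2 (41.8%) and smallest in the brightest (21.5%).

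GNAS, the stimulatory G protein alpha subunit, had the widest range of passing fold changes among the opposed genes. Its probe set 217673_x_at read 239, 169 and 134 on the control arrays and 11426, 9949 and 11346 on the ERG-labelled arrays, a log2 fold change of 5.83. Its probe set 217057_s_at read 214, 192 and 157 and then 6.37, 1.06 and 6.75, a log2 fold change of -3.30. Of its 11 probe sets, 5 were bright on every array of both groups and differed by -0.37 to 0.15. Among them, 212273_x_at read 11679, 11246 and 11198 and then 12922, 11833 and 13070, and 214548_x_at, the 1 of the 5 that passed, read 14393, 13933 and 12979 and then 10927, 9774 and 11231 (limma adjusted p = 0.0078). The mean over all 11 was 0.18 and did not pass (limma adjusted p = 0.074).

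EIF1, a translation initiation factor, and LRRC40, a leucine-rich repeat protein, showed the same kind of contrast. For EIF1, 217672_x_at went from 3948, 3939 and 4136 to 15.7, 34.8 and 61.9 (log2 fold change -6.33), while 211956_s_at, bright on every array, changed by -0.25 and 228967_at by 1.26. For LRRC40, 215063_x_at went from 1852, 1804 and 1580 to 14.7, 1 and 18.1 (-6.07), and 218577_at from 553, 545 and 555 to 1073, 1020 and 1103 (0.93). Replicate arrays thus lay close together within each probe set while the probe sets moved apart. PLAU, the urokinase plasminogen activator, was opposed too: 205479_s_at rose from 1019, 1170 and 984 to 1634, 2267 and 2894 (1.05), and 211668_s_at fell from 685, 827 and 791 to 292, 428 and 416 (-1.003). DNAJB13, CCDC13, MAP3K12, NUCKS1 and ARID1B completed the 8 widest opposed genes, and DNAJB13 spanned -7.09 to 0.53.

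**Figure D3:**
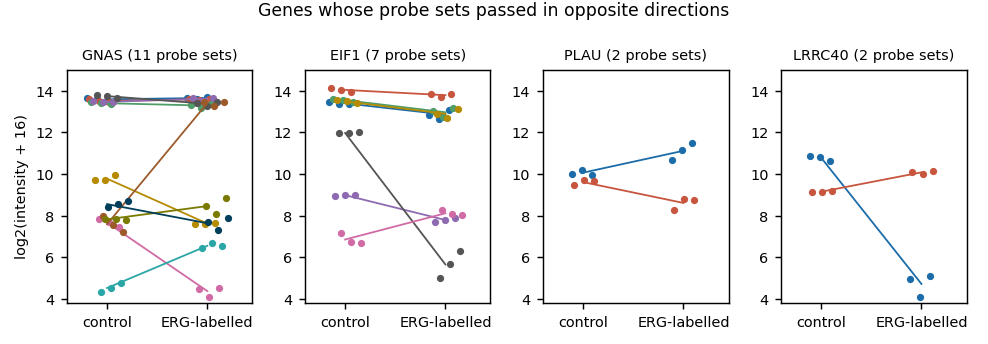
Log2(intensity + 16) on the 3 control and the 3 ERG-labelled arrays for 4 genes with opposed probe sets; each colour is a probe set, points are arrays and lines join group means. In GNAS and LRRC40 single probe sets moved by 5.83 and -6.07 while others of the same gene moved little or the other way.

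Genes whose probe sets all rose included secreted and squamous epithelial products. S100A8, a subunit of the calcium-binding protein calprotectin, read 618, 564 and 538 on the control arrays with 202917_s_at and 4477, 8776 and 5180 on the ERG-labelled arrays. With 214370_at, which was above the median on no control array and so was tested through the ERG-labelled arrays, it read 5.55, 14.4 and 8.34, then 262, 455 and 282. With 202917_s_at every ERG-labelled array lay above every control array, though the share of all probe sets that separate in this way was not counted. The log2 fold change of the mean of both was 3.54 (SE 0.28). PI3, the elastase inhibitor elafin, rose from 401, 372 and 412 to 1597, 2413 and 2152 with 41469_at, and by 2.45 (SE 0.23) as a gene mean. SERPINB3, a clade B serpin of squamous epithelium, rose by 1.49 (SE 0.22).

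Of the 32 squamous differentiation genes listed, 9 were tested: 3 rose, 3 were opposed (SPRR3, SPRR1A and KLK10) and the rest met no criterion. The share was 33.3% for both, against 15.1% risen and 34.3% opposed over all genes. The list's median log2 fold change was 0.67, against 0.03 over all 6663 genes. Under the stricter filter at the 75th percentile 1 member was called higher, and 5 were with values as deposited. Leaving out ERG-labelled array B or C left 2. In the same arrays ETV1 minus control gave 0.65 for S100A8, 0.78 for PI3 and 2.21 for SERPINB3; these share the control arrays, and the difference between the ERG-labelled and ETV1 arrays was not tested.

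Inflammatory mediators rose beside them. IL1B, the cytokine interleukin-1 beta, read 711, 676 and 799 with 205067_at on the control arrays and 2745, 3924 and 4299 on the ERG-labelled arrays. Its probe set 39402_at gave 749, 798 and 876, then 2822, 3525 and 3904, and the gene mean rose by 2.16 (SE 0.16). TNFAIP3, the NF-kB feedback inhibitor A20, rose by 1.43 (SE 0.14), with probe sets at 1.40 and 1.45. ICAM1, a leukocyte adhesion receptor, rose by 1.19 with probe sets between 0.58 and 2.20. CXCL8, the neutrophil chemokine interleukin-8, rose by 1.51, with probe sets at 0.63 and 2.39. CXCL8 was no longer called without control array A (1.45) or B (1.43).

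The NF-kB and cytokine list had 9 tested genes of 29. Of these 4 rose (44.4%, against 15.1% of all genes), and IL1A, NFKBIZ and RELA were opposed (33.3%, against 34.3%). The median log2 fold change was 0.38. The number that rose was 2 with values as deposited, where ICAM1 (1.003) and CXCL8 (1.30) were lost, and 2 under the 75th percentile filter. It was 1 without probe sets of the _x_at and _s_at types, which can match several transcripts. All genes called higher went from 1008 to 1150, 566 and 567 in these runs, the last 2 of which tested fewer genes.

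Interferon-induced genes also had members that rose on every probe set. CXCL11, a chemokine induced by interferons that attracts T cells through CXCR3 and not itself on the list below, read 35.5, 28.3 and 38.5 with 210163_at on the control arrays and 425, 702 and 446 on the ERG-labelled arrays. Its other probe set gave 20.0, 30.7 and 14.1, then 285, 466 and 303, and neither was above the median on any control array. The gene mean rose by 3.34 (SE 0.22). IRF1, a transcription factor of the interferon response, went from 113, 106 and 99.4 to 549, 630 and 520 with 238725_at and from 731, 839 and 666 to 1469, 1592 and 1583 with 202531_at. The arrays of the 2 groups did not overlap for either probe set, though the share of all probe sets without overlap was not counted. The gene mean of IRF1 rose by 1.65 (SE 0.09).

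Of 22 tested interferon genes, 7 rose (31.8%, against 15.1% of all genes), 6 were opposed (27.3%, against 34.3%) and the median log2 fold change was 0.42. ISG20, an exonuclease, rose by 1.81 (SE 0.29), EPSTI1 by 1.74 (SE 0.09) and RSAD2, the antiviral protein viperin, by 1.34 (SE 0.19). XAF1 (1.123), GBP1 (0.88) and IFIT5 (0.65) completed the 7, and these last 3 are named because they complete the count. OAS2, SP110, RIGI, IFI44, PLSCR1 and SAMD9L were opposed, and EIF2AK2, the kinase PKR, had a gene mean of -0.64 with probe sets between -0.99 and -0.24. Read by gene means, 10 of the 22 passed higher and 1 lower, where 38.3% and 35.2% of all genes did. The number that rose was 12 under median centring and 4 when a 2-fold change was also required. For all genes it went from 1008 to 1907 and 255 in these settings.

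Interferons act on many target genes through the ISRE, a promoter element bound by STAT and IRF factors. The core GAAA, any 2 bases and GAAA, searched on both strands in the 250 bases before each start site, was present in 12 of the 19 tested interferon genes with a promoter in the RefSeq table (63.2%), and in 5 of the 7 that rose. It was present in 3.55% of the 5522 tested genes that had a promoter there and in 3.02% of all 35116 start sites. Among all genes with a promoter there, 2.93% of the 819 that rose held it, 2.47% of the 607 that fell and 4.35% of the 1908 opposed. The 150 bases before the start site of those 5 genes are shown with the match in capitals, in the direction of transcription (RefSeq, GRCh38.p14), because these are the genes of the list that moved together and carry the element. Matches on the other strand read TTTC, any 2 bases and TTTC. A match is only a run of letters and does not show binding.
RSAD2, chr2:6877627-6877776, plus strand: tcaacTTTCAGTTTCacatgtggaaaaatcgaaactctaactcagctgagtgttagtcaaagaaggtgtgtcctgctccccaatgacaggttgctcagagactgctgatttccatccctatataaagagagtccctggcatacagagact
ISG20, chr15:88638866-88639015, plus strand: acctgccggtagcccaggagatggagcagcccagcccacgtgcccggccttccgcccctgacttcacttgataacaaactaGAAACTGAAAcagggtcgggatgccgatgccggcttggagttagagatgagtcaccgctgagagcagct
EPSTI1, chr13:42992242-42992391, minus strand: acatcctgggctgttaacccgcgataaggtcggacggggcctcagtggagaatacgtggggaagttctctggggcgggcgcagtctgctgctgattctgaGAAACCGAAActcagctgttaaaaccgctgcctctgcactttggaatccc
GBP1, chr1:89065209-89065358, minus strand: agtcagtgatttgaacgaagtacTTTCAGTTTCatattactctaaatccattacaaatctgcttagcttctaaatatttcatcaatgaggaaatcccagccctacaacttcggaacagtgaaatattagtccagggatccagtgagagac
IFIT5, chr10:89414418-89414567, plus strand: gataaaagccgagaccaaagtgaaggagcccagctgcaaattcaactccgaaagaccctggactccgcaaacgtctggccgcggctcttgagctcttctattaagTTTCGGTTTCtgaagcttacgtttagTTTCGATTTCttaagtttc

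The matches lie at different distances from the start site. In RSAD2 the match began 145 bases before it, in GBP1 127, in ISG20 69 and in EPSTI1 50, and IFIT5 had 2 matches, the nearer beginning 19 bases before the start. The core of ETS sites was searched in the same way with the letters CCGGAAG. It was found in 20.0% of the 819 genes that rose and had a promoter in the table, in 18.1% of the 607 that fell, in 19.8% of the 1908 opposed genes and in 19.5% of all 5522 tested genes with a promoter. The shares lay within 2 percentage points of each other, and 8.52% of all start sites held the letters.

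Mitosis had the largest share of rising genes among the lists with at least 8 tested members. Of 22 tested genes, 11 rose, 1 fell and 3 were opposed (50%, 4.55% and 13.6%, against 15.1%, 11.3% and 34.3% of all genes). The median log2 fold change was 0.82. KIF23, a kinesin of the central spindle needed for cytokinesis, read 147, 108 and 89.1 with 204709_s_at on the control arrays and 564, 525 and 648 on the ERG-labelled arrays. With 244427_at it read 43.3, 26.0 and 25.9, then 158, 122 and 205, and the gene mean rose by 2.05 (SE 0.18). CCNB1, the mitotic cyclin B1, went from 287, 264 and 244 to 1257, 1508 and 1671 with 228729_at, and rose by 1.83 (SE 0.19). KIF14, a kinesin of the midbody, rose by 1.81 (SE 0.21) and NCAPG, a condensin subunit, by 1.72 (SE 0.14). In each of these genes all ERG-labelled arrays lay above all control arrays. The share of all genes that separate in this way was not counted, and 38.3% of all gene means passed higher. For KIF23 with 244427_at, below the median on every control array, the separation follows in part from the filter.

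The other mitosis genes that rose were BIRC5 (1.28), CCNA2 (1.14), NEK2 (1.11), MAD2L1 (1.01), CENPF (0.88), TOP2A (0.56) and SMC2 (0.42), given here to complete the count. BUB3, a checkpoint protein, was the 1 gene called lower, at -0.53, but its gene mean was 0.080 with values as deposited and 0.49 under median centring. It also lost its call without any one of the control arrays and without ERG-labelled array A or B (-0.53 to -0.47). BUB1 was opposed by equal amounts, with probe sets at 2.24 and -2.24, and the proliferation marker MKI67 had probe sets between -0.36 and 0.39. Of the 17 mitosis genes whose probe sets were above the median on all 6 arrays, 10 rose, where 15.7% of all such genes did. The count of rising genes was 4 when probe sets of the _x_at and _s_at types were left out and 5 at 2-fold. All genes called higher were 567 of 3518 and 255 of 6663 in these runs, against 1008 of 6663.

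DNA replication genes had calls in both directions. Of 23 tested, 2 rose (8.70%, against 15.1% of all genes), 3 fell, 5 were opposed and the median was -0.03. The number that rose was 4 with values as deposited, 9 under median centring and 1 when any ERG-labelled array was left out. The number that fell was 1 with values as deposited, under median centring and without a filter. POLA2, a subunit of DNA polymerase alpha, rose by 1.64, GINS3 rose by 0.82, and GINS4, another subunit of the same replicative helicase complex, fell by 1.33. MCM4, a subunit of the replicative helicase, fell by 0.89 on the log2 scale over 4 probe sets. TYMS, thymidylate synthase, was lower by 0.41 on the quantile scale, with a value of 0.13 as deposited and 0.54 under median centring, and it was not called without control array B (-0.33) or ERG-labelled array A (-0.37).

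Subunits of the mitochondrial respiratory chain and ATP synthase had 9 rising members of 31 tested (29.0%, against 15.1% of all genes), 9 opposed members (29.0%, against 34.3%) and a median of 0.27. NDUFA7, a subunit of complex I, went from 839, 838 and 679 to 2483, 2640 and 2329 with 202785_at and from 29.4, 35.1 and 33.5 to 380, 396 and 347 with 1557532_at. Its gene mean rose by 2.33 (SE 0.13). NDUFB7, also of complex I, rose by 1.94, NDUFC1 by 1.10 and COX7B, a subunit of cytochrome c oxidase, by 1.004. Read by gene means, 18 of the 31 passed higher and 5 lower, where 38.3% and 35.2% of all genes did. The count of 9 was 5 without ERG-labelled array A, 6 without B, 16 under median centring and 3 without probe sets of the _x_at and _s_at types. All genes called higher went from 1008 to 684, 715, 1907 and 567 in these runs.

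**Figure D4:**
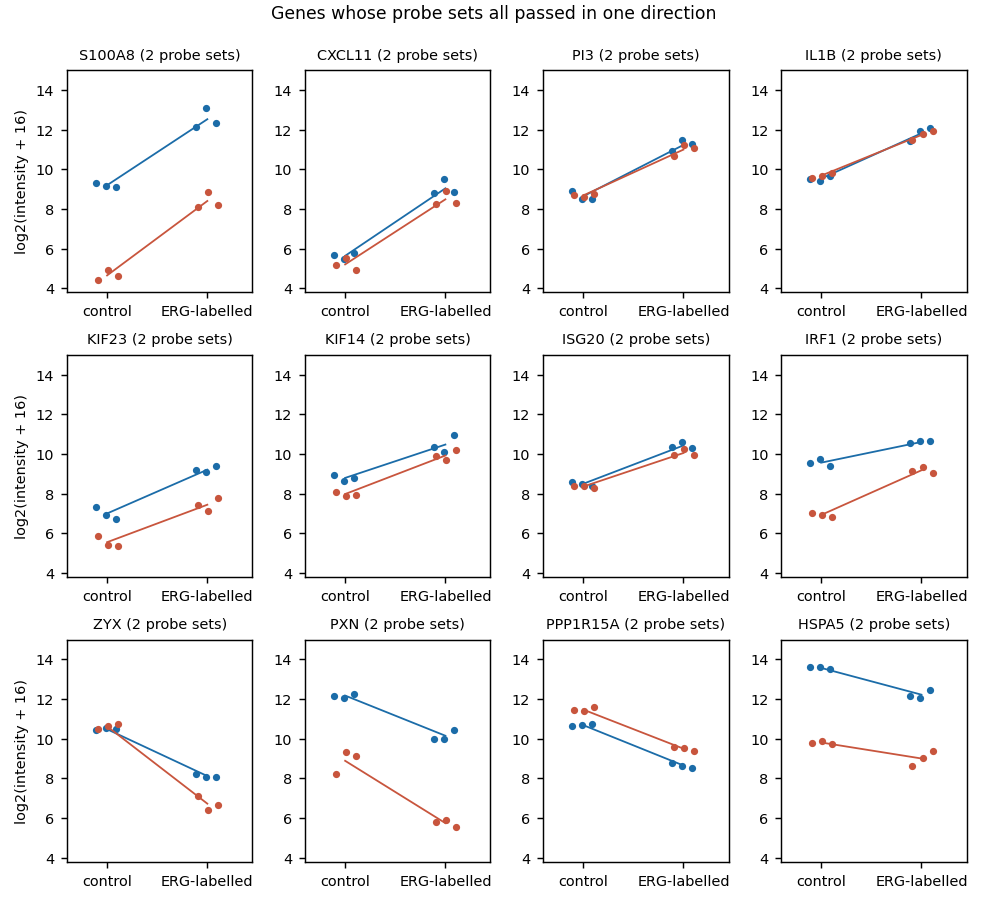
Log2(intensity + 16) on the 3 control and the 3 ERG-labelled arrays for 12 genes whose probe sets all passed in one direction; each colour is a probe set, points are arrays and lines join group means. The upper rows show 8 genes that rose, with S100A8 at 3.54 as a gene mean, and the lowest row 4 that fell, with ZYX at -3.13.

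Among the genes that fell were parts of focal adhesions. ZYX, zyxin, which binds actin regulators at focal adhesions, read 1357, 1459 and 1422 with 200808_s_at on the control arrays and 278, 255 and 253 on the ERG-labelled arrays. With 215706_x_at it read 1425, 1558 and 1717, then 120, 70.2 and 85.6. Its gene mean was -3.13 (SE 0.10). PXN, the adhesion scaffold paxillin, fell from 4604, 4307 and 4950 to 1013, 999 and 1392 with 201087_at and had a gene mean of -2.58 (SE 0.15). PLXNB1, a semaphorin receptor, had a gene mean of -2.43 and PHACTR1, an actin and phosphatase regulator, -2.54. No focal adhesion list was set up, so these are single genes. ETV1 minus control gave 0.39 for ZYX and 0.28 for PXN, with the same control arrays.

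Epithelial junction genes had more calls lower than higher. Of 20 tested, 5 fell (25%, against 11.3% of all genes), 2 rose (10%, against 15.1%), 7 were opposed (35%, against 34.3%), and the median was -0.36. CDH1, E-cadherin of adherens junctions, read 3778, 3708 and 3488 with 201131_s_at on the control arrays and 2214, 1955 and 2523 on the ERG-labelled arrays. Its probe set 201130_s_at gave 103, 166 and 148, then 29.2, 43.4 and 29.9, and the gene mean was -1.17 (SE 0.09). The tight junction gene CLDN1 went from 598, 682 and 830 to 198, 245 and 260 with 222549_at (gene mean -1.06), SPINT1, an inhibitor of surface serine proteases, had a gene mean of -1.12 and the desmosomal cadherin DSC3 one of -0.84. ST14, the protease matriptase that SPINT1 inhibits, was called higher at 1.13, but 1 of its 2 probe sets differed by 0.34, and the call was lost without control array B (1.16) or C (1.03), ETV1 array C (1.14), or ERG-labelled array B (0.999973) or C (1.10).

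The calls of this group moved with the scale. Under median centring 2 of the 5 were still called lower, and CDH1 (-0.58), SPINT1 (-0.59) and DSC3 (-0.22) were not among them. CDH1 was also not called with values as deposited (-0.99). Leaving out probe sets of the _x_at and _s_at types left 1. Over all genes, 391 of the 750 called lower kept that call under median centring. Without those types of probe set 409 of 3518 tested genes were called lower. ETV1 minus control gave 0.22 for CDH1 and 1.05 for CLDN1.

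Stress genes of the endoplasmic reticulum and of amino acid supply had more calls lower than higher on the quantile scale, and more higher than lower under median centring. Of 21 tested, 5 fell (23.8%, against 11.3% of all genes) and 2 rose (9.52%, against 15.1%). The 4 opposed genes were 19.0%, against 34.3%, and the median was -0.24. PPP1R15A, the stress-induced phosphatase subunit GADD34 that restores translation, read 2739, 2640 and 3104 with 37028_at on the control arrays and 746, 729 and 654 on the ERG-labelled arrays. Its probe set 202014_at gave 1592, 1612 and 1696, then 423, 386 and 352, and the gene mean was -2.002 (SE 0.12). HSPA5, the chaperone BiP, fell from 12407, 12344 and 11679 to 4497, 4272 and 5601 with 211936_at and had a gene mean of -1.08. SEL1L, of the degradation machinery of that compartment, had -1.04 over 3 probe sets and the cystine transporter SLC7A11 -0.84.

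PSPH, an enzyme of serine synthesis, rose by 1.14, and the transcription factor CEBPG rose by 0.85. The list depended on the scale: 2 genes were called lower with values as deposited, and under median centring 1 was called lower and 4 higher, where HSPA5 was at -0.21, SEL1L at -0.70 and SLC7A11 at -0.20. PPP1R15A kept its call in every alternative run.

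Luminal and androgen-responsive genes had the lowest median of the lists with at least 8 tested members, -1.07 over 8 genes. KLK4, a prostate kallikrein, fell on 4 probe sets, from 457, 427 and 438 to 92.9, 139 and 102 with 1555697_at, and had a gene mean of -1.98 (SE 0.10). TRPM8, a cold-sensing ion channel of prostate epithelium, had -1.03. These were the 2 called lower (25%, against 11.3% of all genes), and 2 were opposed (25%, against 34.3%). The other 6 were opposed (SLC45A3 and ABCC4) or met no criterion, among them KLK3, which encodes prostate-specific antigen, with probe sets between -1.87 and -0.36. Of the 8 genes, 2 had every tested probe set above the array median on all 6 arrays, and neither of these was called. The number called lower was 4 with values as deposited, 6 with array weights, 1 under the 75th percentile filter, 1 without a filter, and 3 without ETV1 array D or ERG-labelled array B.

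Among the other ETS factors, 20 genes were tested: 3 rose, 3 fell and 5 were opposed, with a median of 0.12. These shares were 15%, 15% and 25%, against 15.1%, 11.3% and 34.3% of all genes. ETV1 read 117, 105 and 84.4 with 217061_s_at on the control arrays and 2.79, 11.9 and 7.20 on the ERG-labelled arrays, and fell on all 4 tested probe sets, by 1.60 on average on the log2 scale (SE 0.13). ERF, an ETS repressor, went from 38.0, 32.8 and 24.99 to 631, 644 and 563 with 203643_at and from 105, 87.7 and 94.3 to 167, 162 and 150 with 230368_at. Its gene mean rose by 2.19 (SE 0.12). ETV7 rose by 1.20, from 111, 125 and 84.5 to 375, 468 and 374 with 221680_s_at, and was not called with values as deposited (1.02).

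The remaining ETS calls were weaker. ELF4 was called higher at 1.09, but not without control array C (0.90), ERG-labelled array A (1.05) or B (1.04). GABPA was called lower at -0.35, but not without control array A (-0.32). ELF1 was called lower at -0.69 and lost its call without control array A or B, ERG-labelled array A or B, or ETV1 array A, B or C (-0.72 to -0.62), and its gene mean was 0.072 under median centring. EHF, ELF2, ELK4, ETS1 and ETV3 were opposed. FLI1, the closest relative of ERG, had 3 probe sets between -0.42 and 2.02 and met no criterion. SPDEF, the prostate-derived ETS factor, had 5 probe sets between -4.55 and -0.22.

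Single members of the signalling lists were called on many probe sets. PHLDA1, a gene induced by ERK signalling, rose on all 6 of its tested probe sets. Its brightest, 217996_at, read 692, 508 and 672 on the control arrays and 3998, 3391 and 3091 on the ERG-labelled arrays, and the gene mean rose by 2.29 (SE 0.33). DUSP7, a phosphatase of ERK, rose by 1.80, and DUSP1, which acts on the MAP kinases JNK and p38 as well, had -1.38. Of 16 tested ERK feedback genes 2 rose, 2 fell and 4 were opposed (12.5%, 12.5% and 25%, against 15.1%, 11.3% and 34.3% of all genes). CCND1, cyclin D1, was called lower at -0.39, but its gene mean was 0.063 as deposited and 0.47 under median centring, and it was not called without control array C (-0.35) or ERG-labelled array B (-0.28).

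DKK3, a secreted relative of the WNT inhibitors, rose on 4 probe sets, from 317, 377 and 292 to 1126, 1931 and 1602 with 214247_s_at, and by 1.92 as a gene mean (SE 0.18). FZD2, a WNT receptor, rose by 1.38 and the ligand WNT7B had -1.17. Of 14 tested WNT genes these were the 3 called, and 5 were opposed, among them APC and CTNNB1. The shares were 14.3% higher, 7.14% lower and 35.7% opposed, against 15.1%, 11.3% and 34.3% of all genes. In the TGF-beta list 3 of 19 rose, 2 fell and 4 were opposed (15.8%, 10.5% and 21.1%, against the same shares of all genes). BMP2, a ligand, rose by 1.22, LTBP1, which holds latent TGF-beta in the matrix, had -1.86, and the co-receptor TGFBR3 had -1.01. FST, the activin antagonist follistatin, was called at 1.52 but not without any one control array or without ERG-labelled array B or C (1.41 to 1.54). INHBA, the activin subunit, was called at 1.05 but not without control array B or C or ERG-labelled array B or C (0.87 to 1.09).

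Protease and invasion genes were called about as often as all genes. Of 13 tested, 2 rose (15.4%, against 15.1%), 1 fell (7.69%, against 11.3%) and 5 were opposed (38.5%, against 34.3%). TFPI2, a Kunitz-type protease inhibitor of the matrix, read 102, 89.4 and 92.0 with 209277_at on the control arrays and 395, 595 and 430 on the ERG-labelled arrays. With 209278_s_at it read 127, 118 and 85.5, then 579, 853 and 644, and it rose by 2.31 (SE 0.36). ETV1 minus control gave 3.55 for it. HPSE, heparanase, rose by 0.98, and SERPINE2, an inhibitor of thrombin and urokinase, fell from 949, 906 and 989 to 388, 395 and 447 with 212190_at and had a gene mean of -1.58.

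In the mesenchymal list 7 of 13 tested genes were opposed (53.8%, against 34.3% of all genes), among them DCN, COL1A1 and MMP2. This was the largest such share of the lists with at least 8 tested members. In this list 1 gene rose (7.69%, against 15.1%) and 2 fell (15.4%, against 11.3%). TNC, tenascin-C of the matrix, rose by 0.94, while the matricellular gene SPARC had -1.03 and THY1, a surface marker of fibroblasts, -1.59. Cholesterol synthesis had 6 opposed genes of 12 (50%, against 34.3% of all genes). There 1 gene rose (8.33%, against 15.1%), HMGCS1 by 0.78. In the hypoxia and glycolysis list 2 of 18 rose (11.1%) and 2 fell (11.1%), against 15.1% and 11.3% of all genes. The rising genes were SLC2A3, a glucose transporter, and BNIP3, a mitochondrial protein of the hypoxia response, named to complete the count. SLC2A3 lost its call without any one control or ERG-labelled array or ETV1 array A or C (0.88 to 1.04), and BNIP3 without control array B or C or ERG-labelled array B (0.43 to 0.50). The number that rose was 0 without control array B or ERG-labelled array B, 5 with values as deposited, 10 under median centring and 4 with array weights. For all genes it went from 1008 to 908, 715, 1150, 1907 and 1229 in these runs. At 2-fold, or without probe sets of the _x_at and _s_at types, none rose and none fell. PKM, pyruvate kinase, had a gene mean of -2.18, but its probe sets differed in size: 201251_at went from 9828, 9737 and 9480 to 1029, 805 and 657 (-3.54) and 213700_s_at from 424, 393 and 345 to 220, 175 and 243 (-0.82). PFKL, a phosphofructokinase, had -1.04 and was not called under median centring (-0.33).

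Most ribosomal protein genes were not called. Of 31 tested ribosomal protein genes 2 rose (RPS9 and RPS24), 2 fell (RPS6 and RPL18), 1 was opposed and 26 met no criterion. The shares were 6.45% higher, 6.45% lower and 3.23% opposed, against 15.1%, 11.3% and 34.3% of all genes. The median was -0.12. With values as deposited 14 were called higher and under median centring 18. All genes called higher also went from 1008 to 1150 and 1907 in these settings. RPS6, at -0.26, was at 0.41 as deposited and 0.82 under median centring. RPS24 (0.46) was not called without control array A (0.45), and RPL18 (-1.14) was not called without any one control array, ETV1 array C or ERG-labelled array A (-1.21 to -1.06). RPL36 had probe sets at -0.08 and 7.91. Of 15 tested proteasome genes 1 fell (6.67%, against 11.3% of all genes) and 2 were opposed (13.3%, against 34.3%). PSMD11, the gene that fell (-0.38), was at 0.34 under median centring. The number of proteasome genes that rose was 0 on the quantile scale, 6 with values as deposited and 8 under median centring. For all genes these numbers were 1008, 1150 and 1907.

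Of 33 tested splicing genes 4 fell (12.1%, against 11.3% of all genes) and 10 were opposed (30.3%, against 34.3%), with a median of -0.25. None rose, against 15.1% of all genes. SF3A2, a subunit of the U2 particle, went from 1284, 1368 and 1303 to 458, 339 and 352 with 37462_i_at and had a gene mean of -1.54, and SRSF5, an SR protein, had -1.36. Under median centring 1 splicing gene was called lower and 8 higher, where 393 and 1907 of all 6663 genes were. In the chromatin list, built around the Polycomb repressive complexes, 3 of 17 fell (17.6%, against 11.3%) and 7 were opposed (41.2%, against 34.3%). RBBP4, a histone chaperone of several such complexes, fell on 6 probe sets with a gene mean of -1.04. CBX2 (-0.60) was not called without control array A or B or ERG-labelled array B or C (-0.66 to -0.51), and RING1 (-0.73) not without any one control array or ERG-labelled array C (-0.74 to -0.59). Under median centring none of the 3 was called lower, with RBBP4 at -0.53, CBX2 at -0.52 and RING1 at 0.22.

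Among the basal epithelial genes, 2 of 8 tested rose, 1 fell and 2 were opposed, with a median of -0.57. These shares were 25%, 12.5% and 25%, against 15.1%, 11.3% and 34.3% of all genes. CAV1, caveolin-1, rose by 1.35 and BNC1, a zinc finger protein of basal epithelium, by 0.82. ITGA6, the integrin alpha 6 of hemidesmosomes, had -1.10 and was not called with values as deposited (-0.65) or under median centring (-0.24). Of 10 tested p53 targets PHLDA3 rose by 0.77, PLK3 had -0.57 and 2 were opposed (10%, 10% and 20%, against the same shares of all genes). In the MHC class I list 5 of 13 were opposed (38.5%, against 34.3%), 1 rose and 1 fell (7.69% each, against 15.1% and 11.3%). B2M, the invariant light chain of MHC class I, was called higher at 0.77 but not without control array C (0.73), and the peptide-loading protein PDIA3 was called lower at -0.41 but was at 0.060 under median centring and lost its call without any one array other than ETV1 array D and ERG-labelled array C (-0.43 to -0.33).

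**Figure D5:**
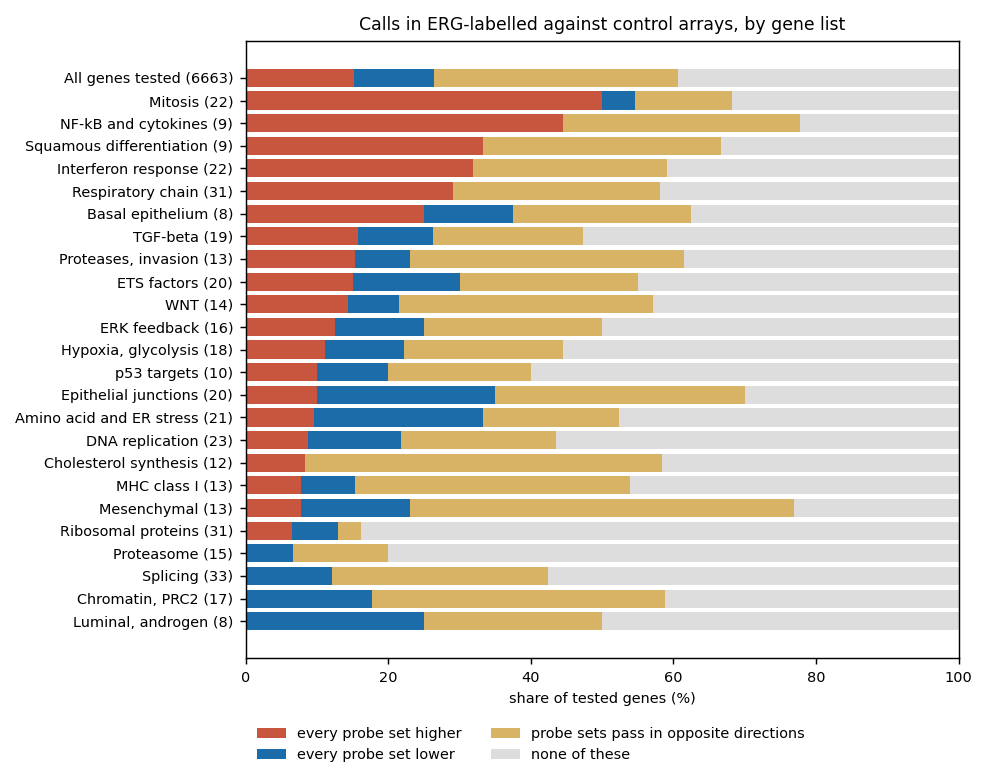
Share of tested genes (horizontal, %) in each gene list, with the number tested in parentheses, whose probe sets were all higher, all lower, opposed, or none of these, in ERG-labelled against control arrays. Mitosis stands at 50% higher against 15.1% over all genes tested, and the opposed share over all genes is 34.3%.

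The remaining genes with the largest agreeing changes were of mixed function. MED18, a Mediator subunit, read 14.1, 3.57 and 11.97 with 219730_at on the control arrays and 189, 210 and 182 on the ERG-labelled arrays, with a gene mean of 4.05, none of the control values being above the median. IGF2BP1, an RNA-binding protein of fetal tissues, rose by 2.64, and TRMT44, a tRNA methyltransferase, by 2.91. Without the filter on low values, which adds dim probe sets, neither was called (1.84 and 1.71), nor were STXBP6 (1.71), DKK3 (1.16), POLA2 (1.01), INHBA (1.32), KLK4 (-1.57), ETV1 (-1.34), ATP6V0D2 (-1.39), PIK3R5 (-1.62), LINC00957 (-0.88), FLT1 (-0.78), GINS4 (-0.25), SRSF5 (-0.42) and RPS9 (0.77). DHRS2, a short-chain dehydrogenase, rose by 2.56, PDZK1IP1, a small membrane protein, by 2.49, MRC2, a collagen receptor, by 2.35 and PLCL2, a phospholipase C relative, by 2.32. STXBP6 rose by 2.04 and the divergent transcript MRNIP-DT by 2.37. CEP192P1 is a pseudogene of CEP192, so that its rise of 2.69 may hold signal of the parent gene. Of 4 tested HOX genes 2 rose, HOXB7 (1.86, with probe sets from 0.62 to 4.04) and HOXB9 (1.41). HOXB5 (-1.71 to 1.87) and HOXD10 (-1.47 to 0.32) were opposed. The share was 50% for both, against 15.1% risen and 34.3% opposed over all genes.

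Genes with the largest agreeing falls included GPR137, a membrane protein of lysosomes, on 3 probe sets. With 43934_at it read 2528, 2650 and 3164 on the control arrays and 71.2, 55.4 and 59.3 on the ERG-labelled arrays, and its gene mean was -4.60 (SE 0.09). PNPLA2, the lipase that starts triglyceride breakdown, went from 2241, 2574 and 2769 to 207, 175 and 186 with 39854_r_at, a gene mean of -2.90. BCL9L, a coactivator of beta-catenin, had -2.69, FLT1, a receptor of VEGF, -2.41, ATP6V0D2, a proton pump subunit, -2.38, PIK3R5, a PI3-kinase regulatory subunit, -2.32, and ZFP82, a zinc finger gene, -2.90. The noncoding genes FAM30A (-4.05), LINC00957 (-2.51) and LINC01210 (-2.42) completed, with ZYX, PXN, PLXNB1, PHACTR1 and PPP1R15A, the 15 genes. ETV1 minus control lay between -0.20 and 0.40 for each of the 15, with the control arrays shared.

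The labelled cell type was visible in both groups. Each marker was read with the brightest of its single-gene probe sets. The 5 basal epithelial markers read in this way were above the median on every array of both groups. Their summed intensities were 18970 to 20187 on control and 18604 to 19486 on ERG-labelled arrays, but single markers differed. KRT5 was higher (5089 to 6550, then 8250 to 8959). KRT14 (8765 to 9912, then 6734 to 8407), ITGB4 (2072 to 2492, then 976 to 1270) and LAMB3 (2084 to 2330, then 1149 to 1440) were lower. KRT15 overlapped (85.8 to 219, then 202 to 233). Of 7 luminal markers 5 were above the median on every control and 4 on every ERG-labelled array. Markers of other cell types were summed lower on the ERG-labelled arrays: endothelium 620 to 648 against 2143 to 2862, fibroblasts 454 to 505 against 1254 to 1370, leukocytes 429 to 579 against 691 to 830 and neuroendocrine cells 338 to 385 against 744 to 821. Of the 12 endothelial, 10 fibroblast, 10 leukocyte and 9 neuroendocrine markers, 4, 3, 4 and 3 were above the median on every control array and 3, 2, 2 and 1 on every ERG-labelled array. Among defining markers, CDH5 read at most 17.6 and PTPRC at most 35.6 on any of the 6 arrays, below the array median. PECAM1, another endothelial marker, read 1337 to 2002 on control and 163 to 199 on ERG-labelled arrays and held most of the endothelial sum on the control arrays. The T cell marker CD3E read 148 to 207 and 25.9 to 64.01, and COL1A1 of fibroblasts 671 to 791 and 121 to 187 with its brightest probe set. Over its 3 tested probe sets COL1A1 was opposed, with 2 passing higher and 1 lower, and its gene mean of -0.19 did not pass. DCN, also in the fibroblast sum, was opposed with 1 probe set each way. Other members of these lists, below the median on every control array, were higher on all ERG-labelled arrays. Among them were CLDN5 (10.6 to 25.3, then 32.5 to 66.8), FAP (8.77 to 21.6, then 37.0 to 55.1), CD14 (15.6 to 20.9, then 24.9 to 52.7) and CHGB (15.4 to 28.4, then 44.9 to 93.0). The sums follow the brightest members. Their part in the results was not tested. ACTB, often used as a reference gene, was lower by 0.36 on the quantile scale, but its gene mean was 0.20 as deposited and 0.60 under median centring, and it was not called without control array C (-0.34) or ERG-labelled array A (-0.30). GAPDH differed by -0.05 (limma adjusted p = 0.62).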

How the data were processed

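Expression was measured on HG-U133 Plus 2.0 arrays of RWPE-1 cells: 3 control, 3 ERG-labelled and 4 ETV1 arrays. The authors deposited 1 intensity per probe set and array, unlogged; how these were summarised and normalized was not given in the sources used here. Of 54675 probe sets, 41091 name 1 gene, 1801 name several and 11783 none or are controls; 41037 were matched by gene ID. Intensities were quantile-normalized over the 10 arrays and taken as log2(intensity + 16), so changes of dim genes are understated. The 25969 probe sets above the array median on at least 3 arrays were fitted with limma (lmFit and eBayes) on all 3 groups together (7 residual degrees of freedom), and their two-sided p-values were adjusted together by Benjamini-Hochberg. Gene means are the mean log2 value of a gene's tested probe sets, fitted in the same way over 6663 genes. The method was tested on simulated data. The number of arrays limits the precision.

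Named genes are the ETS genes tested, the 15 called higher and 15 called lower with the largest change in their least changed probe set, up to 4 called members of each list each way, the 8 opposed genes with the widest range, and a few genes always named. Members, lists and the rule were chosen with earlier results of these data known. Promoters came from RefSeq (GRCh38.p14). Alternatives covered normalization, pseudocounts of 1 and 64, filters, probe set types, the fit, an adjusted p of 0.01, 2-fold, a replicate block and leaving out each array. Fits ran in limma 3.58.1 with R 4.3.3, and figures and promoter searches in Python 3.11.15 using matplotlib 3.10.9 and pandas 2.3.3.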

Additional observations from a re-analysis of the deposited data

How the results depend on the processing

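The counts of 1008 genes higher, 750 lower and 2286 opposed, and of 2554 gene means higher and 2346 lower, moved by more than 1.5 times under 5 settings. Under median centring 1907 genes were higher and 393 lower, with 3942 gene means higher and 1197 lower. With the 75th percentile filter, which tests fewer genes, the counts were 566, 496 and 908, and 1188 and 1341 for gene means. Without probe sets of the _x_at and _s_at types, which also tests fewer genes, they were 567, 409 and 1131, and 1365 and 1167. At 2-fold they were 255, 212 and 611, and 677 and 642. Without a filter 3455 genes were opposed. Leaving out each array in turn gave 684 to 1055 genes higher, 648 to 812 lower and 1760 to 2357 opposed, and 1787 to 2634 gene means higher and 2180 to 2566 lower.

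With the replicate letter as a block (replicate block) 1016 genes were higher, 742 lower and 2291 opposed, with 2600 gene means higher and 2358 lower. Same-letter arrays of the 2 groups did not deviate together (correlations -0.02, -0.03 and -0.07), and the main fit was unpaired. The labels do not say whether the letters pair the arrays, and these correlations cannot show it. Luminal genes called lower were 4 with the block and 2 without it.

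Of the named genes, these gene means changed sign. With values as deposited ACTB was at 0.20, BUB3 at 0.080, CCND1 at 0.063, RPS6 at 0.41 and TYMS at 0.13. Under median centring ACTB was at 0.60, BUB3 at 0.49, CCND1 at 0.47, RPS6 at 0.82, TYMS at 0.54, ELF1 at 0.072, PDIA3 at 0.060, PSMD11 at 0.34, RING1 at 0.22, SNRNP70 at 0.013 and SRRM1 at 0.068. Without a filter CBX2 was at 0.58. Under median centring all genes shifted, with the median gene at 0.49 against 0.03 on the quantile scale. The cause of these changes of sign was not tested. Over all alternatives, values of named genes were counted only in runs that still tested the gene. Of these values, 2325 kept direction and call, 245 kept the direction and lost the call, and 17 changed sign. Runs that dropped a gene are in none of these counts. The 75th percentile filter left 62 values, all counted as kept. Leaving out probe sets of the _x_at and _s_at types left 46, and the filter on the mean of the 6 arrays left 87, also all counted as kept. Signal near the floor limits the dim probe sets, and with 3 arrays per group array handling cannot be told apart from the ERG label.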
